A study of Mus musculus with 24 samples.

Results

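The transcription factor p53 (gene symbol Trp53) and 9 of its direct target genes were followed in wild-type and Smad2 knockout mouse embryonic stem cells. The 10 genes were chosen by symbol, as Trp53, Mdm2, Cdkn1a, Ccng1, Bax, Bbc3, Pmaip1, Zmat3, Phlda3 and Trp53inp1, and each was found in both results tables, among 19780 genes in control cells and 19979 in paused cells. The cells were E14, an established mouse line kept without feeder cells on gelatin in serum with leukaemia inhibitory factor. They were wild type or from 1 of 2 Smad2 knockout lines, and were left in that medium (control) or given INK128, which blocks the kinase mTOR, at 200 nM for 12 h, a treatment used to bring about a paused state. Each of the 6 combinations has 4 poly(A) RNA libraries. Smad2 relays signals of Nodal and activin into the nucleus, and the series title concerns its part in pausing. The labels do not say how the knockout lines were made or whether each is a single clone, nor whether the libraries of a group came from separate cultures, so the p-values measure the spread between libraries, which may be technical.

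The data consist of 1 table per condition, with a mean normalized count, a log2 change, its standard error (SE) and a p per gene. No value per library was at hand, so the spread over libraries is seen only through the SE, the lines cannot be told apart, and depth is unknown. The tables do not name the numerator. Changes are taken as knockout relative to wild type, since Smad2 was lower, at -0.35 (SE 0.07) in the authors' deposited control table and -0.63 (SE 0.06) in the paused one. On this reading Smad2 mRNA was still at 78.6% and 64.6% of the wild-type level, and these data do not show whether the protein was lost. The opposite reading would turn every direction below. A gene is said to have changed where its adjusted p was under 0.05. All 8 embryonic stem cell markers listed, Pou5f1, Sox2 and Nanog among them, were abundant in the authors' deposited control table, with mean counts between 12896 and 51710. Of these 8, 3 (37.5%) were called in each of the authors' deposited tables, against 41.4% of all genes in control and 42.6% in paused cells. Nanog rose (0.32 and 0.18) and Utf1 fell (-0.23 and -0.22) in both, Pou5f1 fell in control (-0.18) and Tdgf1 in paused cells (-0.21). Markers of other cell types also moved with genotype. Of 8 fibroblast markers, which summed to 22.0 ppm of all mean counts in control and 22.9 in paused cells, Lum was in neither table and Dcn only in the control table, at a mean count of 4.17. The others had means up to 381 and 459 counts. In control cells 4 of 7 fibroblast markers, Dcn among them, were called lower in the knockout (all genes, 21.9%). In paused cells 3 of 6 were called lower (all genes, 22.0%). Col1a1 (-2.79 and -3.53) and Col3a1 (-2.95 and -2.22) fell the most in the authors' deposited tables. Primitive endoderm markers summed to 19.7 and 39.0 ppm, and 5 of 6 were called higher in each condition (all genes, 19.5% and 20.5%). Trophoblast markers summed to 253 and 308 ppm, mostly Krt8 and Krt18, which were not called. Hand1 rose (1.95 and 2.69) and Cdx2 fell (-0.84 and -0.92) in the authors' deposited tables, while Eomes fell in control cells (-0.94) and was -0.06 in paused cells, a difference of 0.89 (adjusted p 0.0326). The part of these marker shifts in the changes of the p53 genes was not tested. In bulk RNA, fewer cells of a type and less RNA per cell cannot be told apart.

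p53 is held at a low protein level by Mdm2, a ubiquitin ligase that p53 itself switches on, and rises when that loop is broken by DNA damage or other stress. It then binds DNA as a tetramer and raises genes that stop the cell cycle, such as Cdkn1a, or that open the mitochondrial route to apoptosis, such as Bax, Bbc3 and Pmaip1. Because p53 is controlled mostly at the protein level, its mRNA says little about its activity. In embryonic stem cells the gene is strongly transcribed, and p53 is known there for limiting self-renewal after damage.

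The element p53 binds is built from p53 decamers, 10-base palindromic motifs that usually lie side by side. RefSeq promoter windows (build GRCm38.p6, 250 bases before to 50 after a start) were found for 7 of the 10 genes. An exact p53 decamer, which reads as the same motif on both strands, was in 5 of the 10 windows of these genes (1 each of Trp53, Mdm2, Cdkn1a, Ccng1 and Bax) and in 8.36% of 32851 windows of all genes. A pair of adjoining decamers with at most 1 mismatch was in 0.067% of all windows, and both Cdkn1a and Ccng1 had one. The stretches are shown because Cdkn1a fell in the knockout in both conditions while Ccng1, with the same kind of paired motif, passed the threshold in neither. Capitals mark the decamers, with 25 bases on each side, 5′ to 3′ on the strand of the gene.
Cdkn1a (chr17:29090881-29090972, plus strand): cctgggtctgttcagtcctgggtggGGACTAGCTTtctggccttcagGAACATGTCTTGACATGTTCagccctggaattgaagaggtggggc
Ccng1 (chr11:40755437-40755506, minus strand): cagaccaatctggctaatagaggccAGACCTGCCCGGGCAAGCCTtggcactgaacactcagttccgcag
Mdm2 (chr10:117710910-117710969, minus strand): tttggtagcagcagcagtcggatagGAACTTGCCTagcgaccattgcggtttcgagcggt
Bax (chr7:45467065-45467124, minus strand): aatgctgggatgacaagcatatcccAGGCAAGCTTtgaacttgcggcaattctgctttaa
Trp53 (chr11:69580259-69580318, plus strand): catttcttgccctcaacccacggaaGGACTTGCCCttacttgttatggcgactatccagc
The paired motif of Cdkn1a spans bases -51 to -32 before the upstream of its 2 annotated starts, and that of Ccng1 bases -195 to -176. The windows of Bbc3 and Phlda3 held no exact decamer, which says only that these letters are not in those windows.

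In the knockout few p53 genes were called in control cells and several, mostly lower, in paused cells, but no difference between the conditions was called. A member that was not called is not shown to be at the wild-type level, since some intervals were wide (82.7% to 120.8% for Bbc3 in control cells). In control cells Cdkn1a and Bax fell and no member rose, so that 2 of 10 were called, while 41.4% of all genes tested were called, 21.9% lower and 19.5% higher. Before adjustment 3 of 10 members had a p under 0.05 in control cells, 2 lower and 1 higher (Trp53inp1), against 48.1% of all genes. In paused cells Cdkn1a, Bax, Bbc3, Zmat3 and Phlda3 fell and Pmaip1 rose, so that 5 of 10 were called lower and 1 higher. Of all genes tested in paused cells 42.6% were called, 22.0% lower and 20.5% higher. The median change of the 10 was -0.01 in control and -0.18 in paused cells, where the medians over all genes tested were 0.00 and -0.00. In paused cells 9 of 10 lay below the wild type, called or not, against 50.2% of all genes. The level of each of the 10 members was 5 ppm or more of all mean counts, and among genes this abundant 59.9% lay below the wild type in paused cells, with 31.9% called lower and 51.6% called in all. In control cells 31.6% of abundant genes were called lower and 50.0% in all. The median change of abundant genes was -0.05 in both conditions, below that of the members in control and above it in paused cells. Cdkn1a and Bax were the members called the same way in both conditions. The share of all genes called so was not computed, so this count has no background beside it. Every call was of a modest size, at most 1.41-fold, and with a null of up to 1.2-fold all 8 calls were lost. Summed counts of each genotype were rebuilt from the mean counts and changes. This took 8 knockout and 4 wild-type libraries as entering each comparison, which the sources used here do not state. The log2 ratio of these sums was -0.06 in control and -0.04 in paused cells, so that equal sums would take this off every change. The medians of the members are then 0.04 and -0.14. Members below the wild type go from 6 to 2 of 10 in control cells and stay at 9 of 10 in paused cells. As deposited, the 6 of 10 in control cells stood against 49.9% of all and 60.3% of abundant genes.

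**Figure D1:**
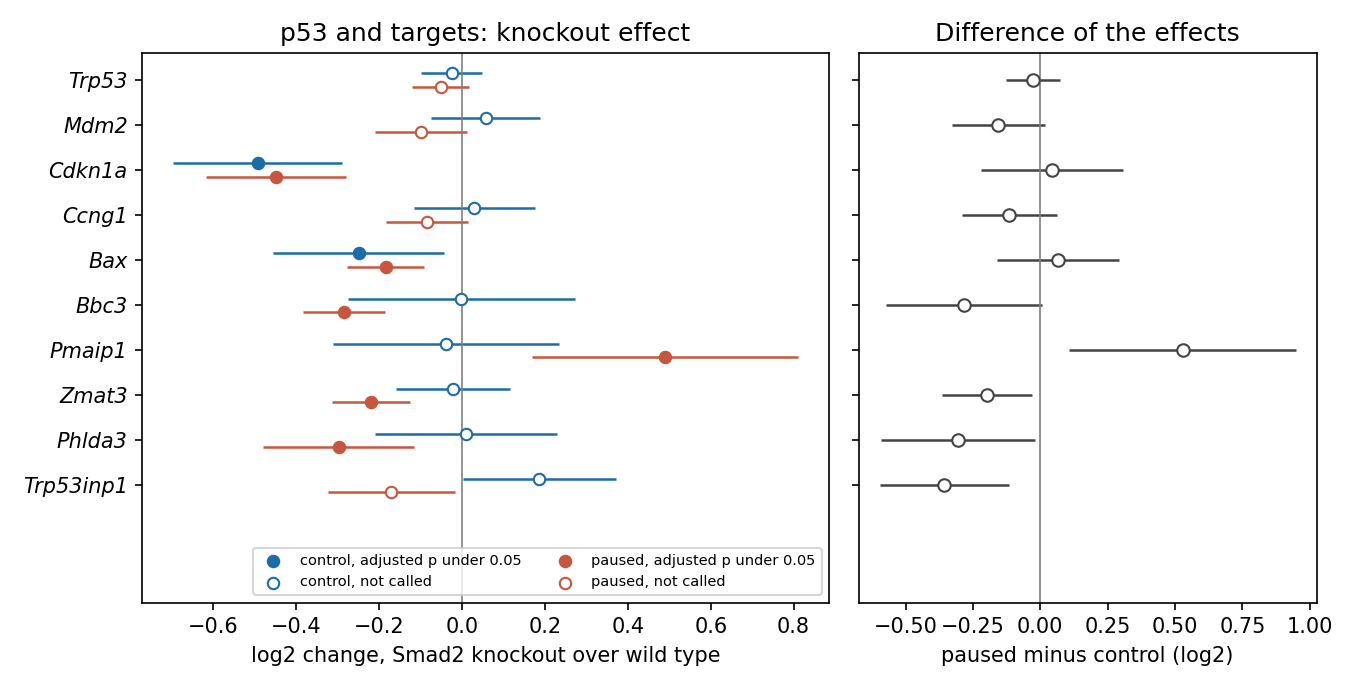
Left, log2 change of knockout over wild type for each gene in control (blue) and paused cells (red), with 95% normal intervals from the deposited standard errors; filled points have an adjusted p under 0.05. Right, the paused minus the control change with its 95% interval. Cdkn1a lies left of 0 in both conditions, and Pmaip1 is the 1 gene called higher.

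Trp53 mRNA was abundant and close to the wild-type level in both conditions. The gene lies on chr11:69580359-69591873 (GENCODE M21 on GRCm38, the mm10 build named in the submitters' processing notes, as for all positions of genes here). In the authors' deposited control table its mean was 23218 normalized counts, higher than that of 98.5% of genes, with a change of -0.02 (SE 0.04, adjusted p 0.64). In the authors' deposited paused table the mean was 20650 and the change -0.05 (SE 0.04, adjusted p 0.245). The 95% intervals put the knockout between 93.5% and 103.5% of the wild-type level in control and between 92.0% and 101.2% in paused cells under the deposited scaling. With equal summed counts they run from 97.1% to 107.5% and from 94.3% to 103.8%. Wrap53, a telomerase cofactor gene whose annotated start is 103 bases away on the opposite strand, was at 0.04 in the authors' deposited control table (adjusted p 0.646) and rose by 0.28 in the authors' deposited paused table (SE 0.05, adjusted p 2.03e-07); the difference of 0.25 was not called (adjusted p 0.0593). Use of strand in counting was not given in the sources used here.

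Mdm2 (chr10:117688875-117710758), the ligase that p53 induces and that marks p53 for destruction, passed the threshold in neither condition. The authors' deposited tables gave 0.06 (SE 0.07, adjusted p 0.528) in control and -0.10 (SE 0.06, adjusted p 0.153) in paused cells. The knockout level lay between 95.0% and 114.0% of the wild type in control and between 86.4% and 100.9% in paused cells by the 95% intervals. The paralog that blocks p53 without degrading it, Mdm4, had like values in the authors' deposited tables, 0.14 and -0.13, neither of them called (adjusted p 0.165 and 0.103).

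Cdkn1a (chr17:29090976-29100727) codes for p21, the inhibitor of cyclin-dependent kinases through which p53 halts the cell cycle. Under the direction taken here it was the most reduced member, and under the opposite reading it would be the most raised in both conditions. In the authors' deposited control table it changed by -0.49 (SE 0.10, adjusted p 1.47e-05), to 71.1% of the wild-type level (95% interval 61.8% to 81.8%). In the authors' deposited paused table the change was -0.45 (SE 0.09, adjusted p 1.53e-06), to 73.3% (65.2% to 82.4%). The difference between them was 0.04 (95% interval -0.22 to 0.31, adjusted p 0.944). Of the abundant genes, 89.6% had a smaller absolute change in control and 89.0% in paused cells. An annotated transcript on the opposite strand overlaps Cdkn1a and was in neither table. The adjusted p was 0.185 in control and 0.212 in paused cells against 1.2-fold. Both calls were also lost after scaling the statistics to a standard normal middle spread (0.658 and 0.53). With that scaling 1.48% of all genes in control and 2.25% in paused cells were called. Both calls held at an adjusted p under 0.01, among abundant genes alone, centred on the median of abundant genes and with equal summed counts.

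Ccng1 (chr11:40748552-40755311), the other cell cycle member, codes for cyclin G1, which brings a phosphatase to Mdm2. It was at 0.03 (SE 0.07, adjusted p 0.78) in the authors' deposited control table and at -0.08 (SE 0.05, adjusted p 0.172) in the paused one. Its knockout level lay between 92.3% and 113.0% of the wild type in control and between 88.1% and 101.0% in paused cells.

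Of the 3 apoptosis genes Bax was called lower in both conditions, and in paused cells Bbc3 was called lower and Pmaip1 higher. Bax (chr7:45461697-45466898), whose product forms pores in the outer mitochondrial membrane, was -0.25 in the authors' deposited control table (SE 0.11, adjusted p 0.0452) and -0.18 in the paused one (SE 0.05, adjusted p 5.52e-04), 84.2% and 88.0% of the wild-type level. The control call was lost at an adjusted p under 0.01 and under both other scalings, with changes of -0.20 (adjusted p 0.13) on the median of abundant genes and -0.19 (adjusted p 0.134) with equal summed counts. Bax shares 915 bases with Gm45808, an annotated gene on the same strand that was in neither table, and how reads in that stretch were assigned was not given in the sources used here.

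Bbc3 (chr7:16308393-16318205) codes for Puma, a BH3-only protein that sets Bax free. It was -0.00 in the authors' deposited control table (SE 0.14, adjusted p 0.997), with an interval from 82.7% to 120.8% of the wild-type level. In the authors' deposited paused table it fell by 0.28 (SE 0.05, adjusted p 1.63e-07), to 82.2% (76.7% to 87.9%). The paused minus control difference was -0.28 (SE 0.15, adjusted p 0.409).

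Pmaip1, which codes for the BH3-only protein Noxa, was the 1 member to rise. Its value in the authors' deposited control table was -0.04 (SE 0.14, adjusted p 0.852). In the authors' deposited paused table it was 0.49 (SE 0.16, adjusted p 0.00878), or 140.4% of the wild type, with a wide interval of 112.4% to 175.3%. The difference of 0.53 (SE 0.21) had an unadjusted p of 0.0138 and an adjusted p of 0.227, so a dependence on pausing was not established.

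The remaining targets act on splicing, Akt signalling and p53 itself. Zmat3 (chr3:32334792-32366014), an RNA-binding zinc finger protein that shapes splicing, was -0.02 (SE 0.07, adjusted p 0.841) in the authors' deposited control table and -0.22 (SE 0.05, adjusted p 2.69e-05) in the paused one. Phlda3 (chr1:135766119-135769136), a protein with a pleckstrin homology domain that restrains Akt, was 0.01 (SE 0.11, adjusted p 0.958) in the authors' deposited control table and -0.30 (SE 0.09, adjusted p 0.00497) in the paused one. The paused values correspond to 85.9% of the wild type for Zmat3 and 81.4% for Phlda3. Trp53inp1 (chr4:11156431-11174379), a stress protein that promotes p53 activity, was 0.19 (SE 0.09, adjusted p 0.0973) in the authors' deposited control table and -0.17 (SE 0.08, adjusted p 0.066) in the paused one. Its control value passed the threshold, as a rise, with changes centred on the median of abundant genes (0.24, adjusted p 0.0291) and with equal summed counts (0.24, adjusted p 0.0278).

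No member passed the test of the difference between conditions, in which 1.44% of 19134 genes were called. Before adjustment 4 of 10 had a p under 0.05 (Pmaip1, Zmat3, Phlda3 and Trp53inp1), against 12.9% of all genes. The difference for Trp53inp1 was -0.36 (SE 0.12, p 0.00345, adjusted p 0.116), for Phlda3 -0.31 (SE 0.15, adjusted p 0.338) and for Zmat3 -0.20 (SE 0.08, adjusted p 0.261). The calls in paused cells alone are therefore not shown to be an effect that differs from that in control cells. Intervals of the differences were widest for Pmaip1, from 0.11 to 0.95, also wide for Bbc3, from -0.57 to 0.01, and narrowest for Trp53, from -0.13 to 0.07.

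The target genes had larger SEs than other genes of like abundance, and Trp53 did not. For each member the SE was set beside those of the 200 genes with the nearest mean count. In control cells the SEs of 9 of 9 targets were above that median, between the 76.5th and the 97.5th percentile and by a median of 1.87 times. In paused cells 8 of 9 were above, with Bbc3 at the 46.5th percentile and Pmaip1 at the 98th, and the median ratio was 1.45. Trp53 stood at the 11.5th percentile in control and the 34.5th in paused cells. For Bbc3 the SE was 0.14 in control and 0.05 in paused cells, for Bax 0.11 and 0.05, and for Pmaip1 0.14 and 0.16. Whether the spread lay between the knockout lines or within a group was not tested, as that needs the libraries.

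**Figure D2:**
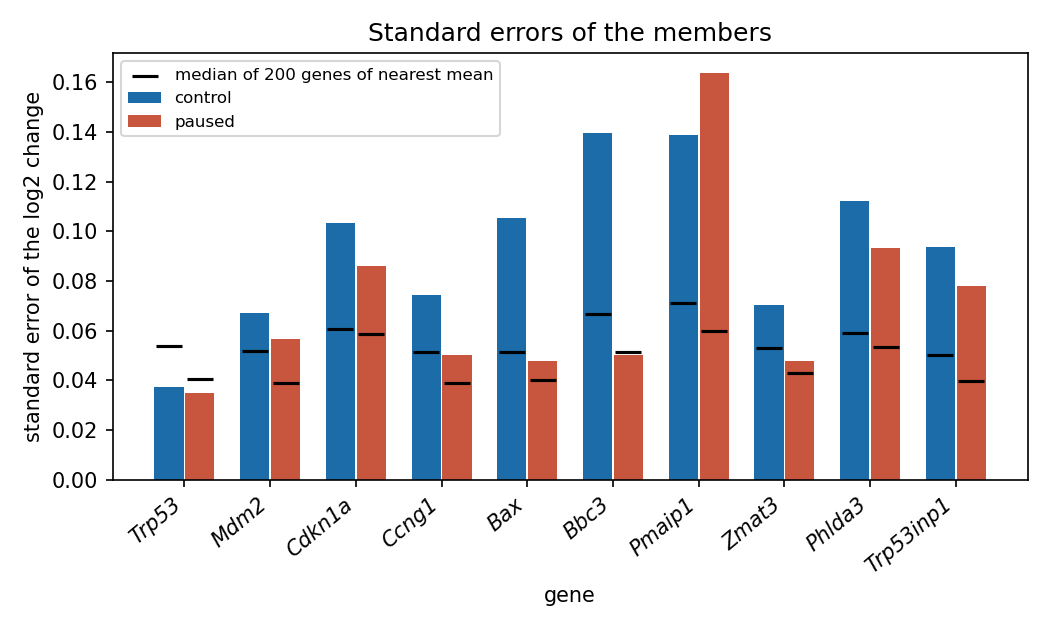
Bars show the standard error of the log2 change of each gene in control (blue) and paused cells (red), and black lines the median over the 200 genes of nearest mean count. The bars of all 9 targets rise above the line in control cells, and the bars of Trp53 stay below it in both.

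Levels were then set side by side, per kilobase of annotated exon (GENCODE M21) to compare genes. In the control table Bax (6743 mean normalized counts per kb), Trp53 (5740) and Ccng1 (4306) led, followed by Trp53inp1 (1749), Mdm2 (1686) and Phlda3 (1332). Bbc3 (585), Zmat3 (571), Cdkn1a (445) and Pmaip1 (340) were the lowest. Neighbours in this order cannot be separated, since the means have no error. In the paused table Trp53 (5105) and Bax (4483) were again among the highest and Cdkn1a (275), Zmat3 (334) and Pmaip1 (429) among the lowest.

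As a share of each table's summed mean counts, 7 of 10 members were lower in the paused than in the control table, against 44.3% of the 10958 genes above the minimum on abundance. These means pool genotypes, the tables were normalized separately, and no test was possible. Zmat3 was at 60.7% of its control share, Cdkn1a at 64.1%, Bax at 69.1%, Phlda3 at 70.7% and Ccng1 at 75.4%. Mdm2 and Trp53 were at 91.0% and 92.5%. The exceptions were Bbc3 at 148.8%, Pmaip1 at 131.4% and Trp53inp1 at 117.5%. As the means pool genotypes, the paused minus control difference of the knockout change is part of these ratios. That difference was upward for Pmaip1 (0.53) and small for Bax (0.06) and Cdkn1a (0.04). It was downward for Trp53inp1 (-0.36), Phlda3 (-0.31), Bbc3 (-0.28) and Zmat3 (-0.20), and none of these differences was called. Shares in the wild type alone were not tested.

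**Figure D3:**
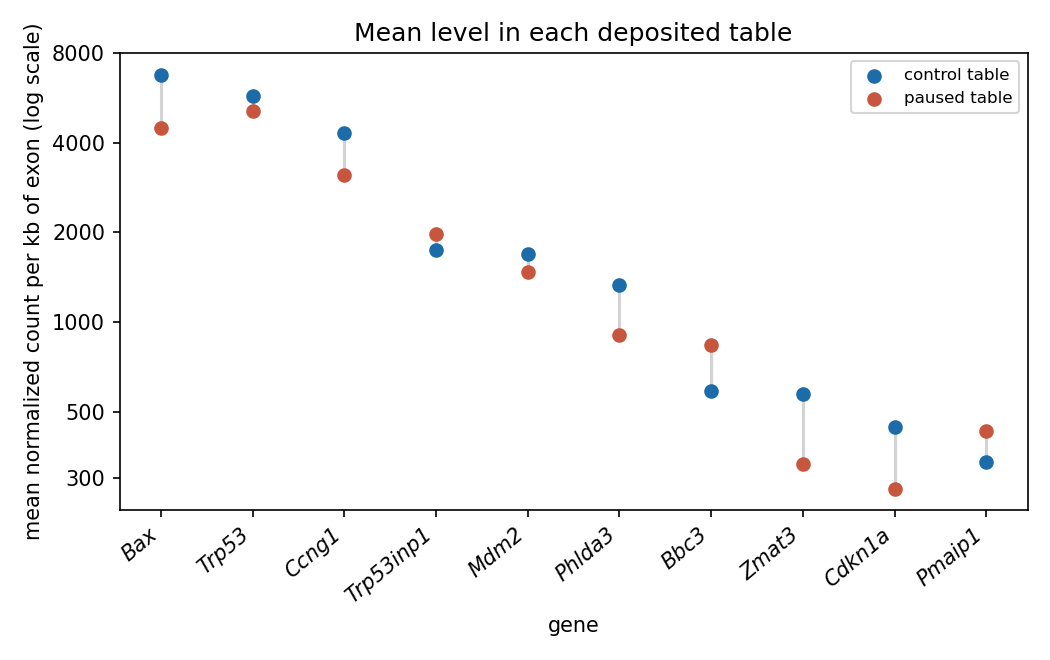
Mean normalized count per kb of exon (log scale) of each gene in the control (blue) and paused (red) tables, ordered by the control level. Grey lines join the means of a gene, which pool the libraries of a table and have no error; Bbc3, Pmaip1 and Trp53inp1 are the genes whose red point is the higher.

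Other direct p53 targets gave no common direction, and their share of called genes, 46.9% in control and 56.2% in paused cells, stood against 41.4% and 42.6% of all genes and 50.0% and 51.6% of abundant ones. Of 32 genes listed, 9 were called higher and 6 lower in control cells, and 7 higher and 11 lower in paused cells, with medians of 0.04 and -0.09 (0.09 and -0.05 with equal summed counts). The largest changes were in both directions. Sfn, which codes for the cell cycle inhibitor 14-3-3 sigma, fell, with changes of -1.50 (SE 0.23) and -1.70 (SE 0.26) in the authors' deposited control and paused tables. Perp, a desmosome protein of epithelia, fell, with changes of -0.80 (SE 0.20) and -1.07 (SE 0.21) in the authors' deposited tables. Cd82, a tetraspanin, rose by 1.07 (SE 0.15) and 1.14 (SE 0.15) in the authors' deposited tables, and Sesn1, a sestrin that restrains mTOR complex 1, rose by 0.81 (SE 0.06) and 0.63 (SE 0.06). At low counts Fas, a death receptor, fell by 0.99 (SE 0.34) in control cells alone, and Dram1, a lysosomal protein, passed the threshold in paused cells alone at 0.69 (SE 0.26), in the authors' deposited tables; neither difference was called (adjusted p 0.179 and 0.871).

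Among 25 regulators, cofactors and paralogs of p53, 5 were called higher and 8 lower in control cells and 4 higher and 7 lower in paused cells. Their medians were 0.01 and -0.01, and the shares called, 52.0% and 44.0%, stood against 41.4% and 42.6% of all genes and 50.0% and 51.6% of abundant ones; with equal summed counts the medians are 0.07 and 0.02. The family members Trp63 and Trp73 rose in control cells of the authors' deposited table, by 1.74 (SE 0.55) at a mean of 6.99 counts and by 0.44 (SE 0.13) at a mean of 861; their differences between conditions were not called (adjusted p 0.211 and 0.234). Cdkn2a, whose product ARF blocks Mdm2, was -0.30 (SE 0.11, adjusted p 0.0152) in the authors' deposited control table. Ppp1r13l, which codes for the p53 inhibitor iASPP, was -0.33 (SE 0.10, adjusted p 0.00354) there. In the authors' deposited paused table they were -0.23 (adjusted p 0.15) and -0.14 (adjusted p 0.251), and neither difference was called (adjusted p 0.917 and 0.64). Hipk2, a kinase of p53, was -0.18 (SE 0.08, adjusted p 0.056) in the authors' deposited control table and fell by 0.22 (SE 0.06) in the paused one, a difference of -0.03 (adjusted p 0.944). Atr, a damage checkpoint kinase, rose alike in both of the authors' deposited tables, by 0.20 (SE 0.07) in control and 0.21 (SE 0.05) in paused cells, and so did Ppp1r13b, which codes for the p53 cofactor ASPP1, by 0.19 (SE 0.06) and 0.21 (SE 0.06).

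Most cell cycle genes that p53 lowers through p21 and the DREAM repressor complex were not called. Of 20, 1 was called higher and 6 lower in control cells, and 4 higher and 5 lower in paused cells, with medians of -0.08 and -0.01; the shares called, 35.0% and 45.0%, stood against 41.4% and 42.6% of all genes and 50.0% and 51.6% of abundant ones. With equal summed counts the medians are -0.03 and 0.02. Cyclin E1 (Ccne1) fell in both (-0.36, SE 0.08, and -0.34, SE 0.06), as did the mitotic factor Foxm1 (-0.28, SE 0.07, and -0.24, SE 0.04) and the anaphase activator Cdc20 (-0.14, SE 0.05, and -0.23, SE 0.04) in the authors' deposited tables. Mybl2, a partner of the activating form of that complex, rose by 0.15 (SE 0.06) and 0.14 (SE 0.05) in the authors' deposited tables. Ccnb2, a mitotic cyclin, rose by 0.15 (SE 0.05) in the authors' deposited paused table. It was at 0.01 in the authors' deposited control table (adjusted p 0.873), and the difference of 0.14 was not called (adjusted p 0.447).

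Within the BCL2 family and caspases, Bcl2 and Bok had larger changes in both conditions than the apoptosis genes among the members. The median absolute change of the list was 0.26 in control and 0.25 in paused cells, where Bbc3 (-0.28) and Pmaip1 (0.49) had larger ones. No test compared the list with the members. Of 18 genes, 3 were called higher and 8 lower in control cells and 4 higher and 9 lower in paused cells, with medians of -0.12 and -0.15 (-0.07 and -0.12 with equal summed counts). The shares called were 61.1% and 72.2%, against 41.4% and 42.6% of all genes and 50.0% and 51.6% of abundant ones. The survival gene Bcl2 fell, with changes of -2.18 (SE 0.24) and -2.75 (SE 0.24), from a low level, with means of 50.3 and 68.7 counts in the authors' deposited tables. Bok, a Bax-like effector, fell, with changes of -1.07 (SE 0.13) and -1.13 (SE 0.20) in the authors' deposited tables. BH3-only genes went both ways. Bik, Bmf and Hrk rose in both of the authors' deposited tables, Bmf by 0.61 (SE 0.09) and 0.36 (SE 0.07), Bik by 0.65 (SE 0.14) and 0.40 (SE 0.17) and Hrk by 0.54 (SE 0.15) and 0.49 (SE 0.10). Bid (-0.46, SE 0.06, and -0.29, SE 0.07) and Bcl2l11 (-0.21, SE 0.07, and -0.24, SE 0.08), named after their values were seen, fell in both of the authors' deposited tables.

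**Figure D4:**
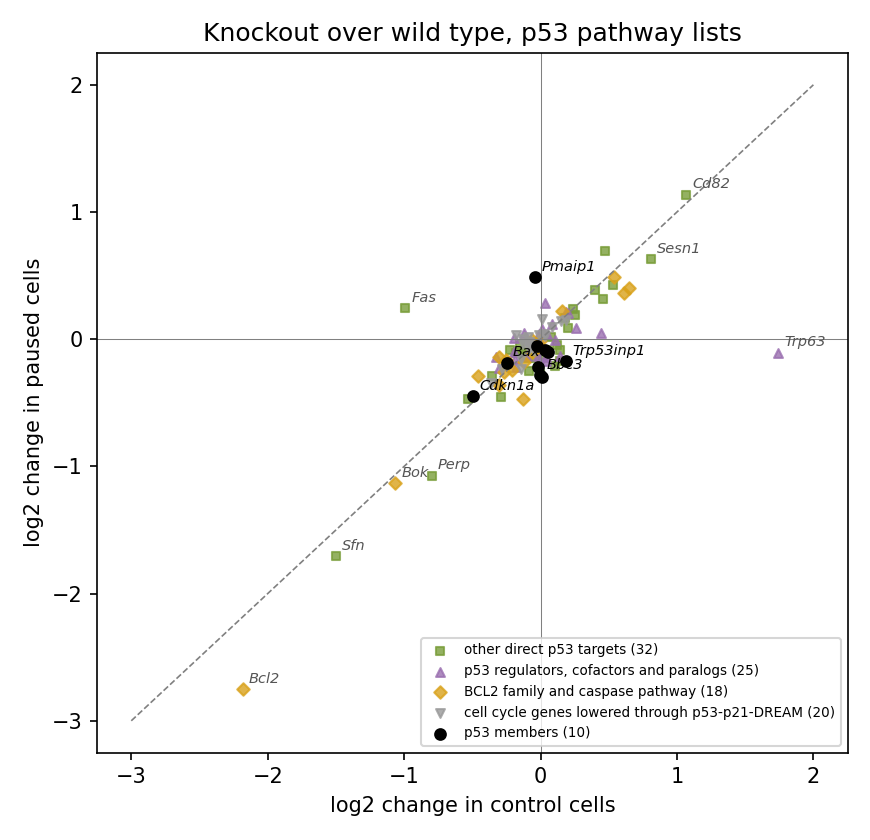
Log2 change of knockout over wild type in control (x) and paused cells (y) for the 10 p53 members (black) and the other lists; the dashed line marks equal changes. Most members gather near 0, while Cdkn1a lies at -0.49 in control and -0.45 in paused cells. Pmaip1 lies above the dashed line, and Trp53inp1, Phlda3 and Bbc3 are among the members below it. Of the other lists, Bcl2, Sfn, Perp and Bok lie far down along the line and Cd82 and Sesn1 far up.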

How the data were processed

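Poly(A) RNA of 24 libraries was sequenced, in 6 groups by title. FastQC, Trim Galore, HISAT2, featureCounts, DESeq2 and mm10 are named in the submitters' processing notes, with no versions; strand use, annotation and the libraries entering each comparison were not given in the sources used here. Per the file headers, the authors deposited a mean normalized count (a signal value averaged over libraries), a log2 change with its SE on the log2 scale, a Wald statistic (a score), and a p-value with its Benjamini-Hochberg adjusted p-value. The statistic and both p-values were recomputed, and, the very smallest p-values apart, none differed by over 1 percent. No test was refitted. Planned count tests were not possible on results tables, and 2 control genes have no p.

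The difference was the paused minus the control change over the root of the summed squared SEs, two-sided normal, adjusted over 19134 genes. It was also run on simulated data with normal errors of the deposited SEs, as the test itself assumes. The planted differences were larger than that of any member. That run cannot show whether the assumptions hold here or how often differences of the members' size would be called. By the labels, the control and paused libraries are distinct samples, and the test takes the tables as independent. Intervals are 95% normal intervals. Named genes are the 10 members, Smad2, neighbours and, per other list and test, up to 4 called genes of largest change. Mdm4, Bid, Bcl2l11, the cell type markers and the genes of the closing section that this rule does not give were named with their values known. The members and lists were chosen with earlier results of these data known. One listed gene, Cop1, was matched as Rfwd2 through RefSeq synonyms. Python 3.11.15, numpy 2.4.6, scipy 1.17.1 and pandas 2.3.3 were used.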

Additional observations from a re-analysis of the deposited data

Results flagged for a closer look

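Of the genes in the p53 pathway lists, Apaf1 and Bcl2l2 had a knockout effect that differed between paused and control cells by the test of the difference. They are 2 of 105 genes, or 1.90%, close to the 1.44% called over all genes, and neither was called against a difference of at most 1.2-fold. Apaf1, a p53 target that builds the apoptosome, was 0.11 (SE 0.08, adjusted p 0.259) in the authors' deposited control table and fell by 0.21 (SE 0.05, adjusted p 1.26e-04) in the paused one. Its difference was -0.32 (SE 0.09, adjusted p 0.0372). Bcl2l2, which codes for the survival protein Bcl-w, was -0.13 (SE 0.08, adjusted p 0.164) in the authors' deposited control table and fell by 0.47 (SE 0.05, adjusted p 5.81e-23) in the paused one. Its difference was -0.34 (SE 0.09, adjusted p 0.0145). Of the cell type markers, the trophoblast gene Eomes also differed by this test, by 0.89 (SE 0.25, adjusted p 0.0326).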

How the results depend on the processing

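Members called lower numbered 2 in control and 5 in paused cells. Against a null of at most 1.2-fold, and after scaling the statistics to a standard normal middle spread, they numbered 0 in both, and the 1 called higher in paused cells also became 0. In control cells 1 was called lower at an adjusted p under 0.01, with changes centred on the median of abundant genes and with equal summed counts; under both of these scalings 1 was called higher, against 0. The difference gave 0 under each of the 6 alternatives, no member reversed with a call, and 7 members had a lower mean in paused cells also without dividing by the table sum. Over all genes the 8189 control calls became 2090 against 1.2-fold and 293 with the scaled statistic, and the 8504 paused calls 2122 and 450. With equal summed counts 60.5% of control and 57.6% of paused calls were higher, against 47.1% and 48.2% as deposited. The cause was not tested. Leaving out libraries or another tool was not possible. No paired analysis was possible because the tables hold no value per library.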

Other observations

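Among the other genes listed, chosen after their values were seen, Hrk had by far the largest shift in mean level, from 82.7 normalized counts in the authors' deposited control table to 616 in the paused one. As a share of summed mean counts it was 7.74-fold higher, above 99.9% of genes, and the BH3-only gene Bmf was 2.59-fold higher. The ribosomal protein-like p53 target Rps27l was at 39.1% of its control share, cytochrome c (Cycs) at 38.4% and cyclin E1 (Ccne1) at 36.6%. Of the 32 other direct p53 targets 21 had a lower share in the paused table, against 43.3% of all genes, among them Tigar at 51.0% and Btg2 at 52.7%, while Ddb2 was at 225.3%. These means pool genotypes over separately normalized tables and have no test.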
